A study of Mus musculus with 59 samples.

Results

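The 10 genes described here encode enzymes and a transcription factor that make fatty acids and triglycerides in mouse liver. They were chosen by symbol: Acly, Acss2, Acaca, Acacb, Fasn, Me1, Srebf1, Gpam, Lpin1 and Lpin2, which are 10 of 18193 genes with at least 1 probe set of a single symbol. They have 25 of 45037 probe sets, and the brightest probe set of a gene, by its mean across the 59 arrays, represents it.

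Male C57BL/6 mice aged 6 weeks were kept on their diet for 2 weeks before treatment, and their liver RNA was hybridised to 1-colour expression arrays. Mice on LRD-5001 received sodium arsenite for 5 weeks at 0, 10 or 100 ppb in drinking water or at 10 ppb in food, and mice on AIN-76A received the same 4 regimens. Other mice on AIN-76A were sampled 8 hours after an intraperitoneal injection of dexamethasone at 1 mg/kg with arsenite at 1 mg/kg, of dexamethasone alone, of arsenite alone or of saline. Each of the 12 groups had 5 arrays, except AIN-76A with 100 ppb in water, which had 4. LRD-5001 is a cereal-based chow, and AIN-76A is a purified diet in which sucrose is a main ingredient. The injected mice all ate AIN-76A, so injection was not studied on LRD-5001.

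In liver, surplus carbohydrate is turned into fat by lipogenesis. ATP citrate lyase (Acly) and acetyl-CoA synthetase (Acss2) supply acetyl-CoA, acetyl-CoA carboxylases (Acaca, Acacb) turn it into malonyl-CoA, fatty acid synthase (Fasn) extends the chain, and malic enzyme (Me1) supplies NADPH. Srebf1 encodes SREBP-1, a transcription factor for these enzymes. Gpam encodes the mitochondrial acyltransferase that starts glycerolipid synthesis, and lipins (Lpin1, Lpin2) dephosphorylate phosphatidate to diacylglycerol, the precursor of triglyceride.

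Windows of 250 bases before an annotated start site of 4 members are printed here. In the averaged diet comparison below, Fasn and Acly were lower with LRD-5001, Acss2 did not pass the test and Lpin2 was higher. The sequences are from RefSeq annotation of GRCm38.p6, read 5′ to 3′ on the gene's strand. Capitals mark exact matches, on either strand, of CCAAT (the NF-Y box), GGGCGG (the Sp1 box) and CACGTG (an E-box). The Fasn window is chr11:120824548-120824797 on the minus strand, the Acly window chr11:100528001-100528250 on the minus strand, the Acss2 window chr2:155517793-155518042 on the plus strand and the Lpin2 window chr17:71183282-71183531 on the plus strand.
Fasn: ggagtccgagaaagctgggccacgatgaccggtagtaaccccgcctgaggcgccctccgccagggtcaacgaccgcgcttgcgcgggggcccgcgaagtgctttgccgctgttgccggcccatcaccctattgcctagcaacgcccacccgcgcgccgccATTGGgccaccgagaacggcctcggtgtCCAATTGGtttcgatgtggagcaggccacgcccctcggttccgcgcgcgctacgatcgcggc
Acly: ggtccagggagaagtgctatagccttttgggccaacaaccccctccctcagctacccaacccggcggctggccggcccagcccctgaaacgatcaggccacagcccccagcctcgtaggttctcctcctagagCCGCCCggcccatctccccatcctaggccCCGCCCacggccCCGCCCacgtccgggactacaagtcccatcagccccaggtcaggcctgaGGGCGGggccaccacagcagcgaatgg
Acss2: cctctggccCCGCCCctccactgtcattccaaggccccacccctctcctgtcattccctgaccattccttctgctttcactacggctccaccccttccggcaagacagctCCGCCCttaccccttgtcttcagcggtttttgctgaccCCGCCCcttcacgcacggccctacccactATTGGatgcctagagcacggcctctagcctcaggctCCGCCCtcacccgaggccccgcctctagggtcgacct
Lpin2: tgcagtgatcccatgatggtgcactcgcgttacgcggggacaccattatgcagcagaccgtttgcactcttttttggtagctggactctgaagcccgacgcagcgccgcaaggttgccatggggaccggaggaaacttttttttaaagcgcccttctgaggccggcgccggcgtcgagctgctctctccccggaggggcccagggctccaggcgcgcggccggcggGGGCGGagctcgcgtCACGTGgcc

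Fasn held 3 matches of CCAAT, 2 of them overlapping, and Acly and Acss2 held 4 matches of GGGCGG each. The 10 members had 16 annotated windows, several for some members, and most windows lay inside the annotated span of the gene. Among these were the only windows of Acaca, Acacb, Lpin1 and Fasn, the last printed above, and all those of Srebf1. For these genes, the sequence before the first base of the annotated gene was not searched. Another Lpin2 window, chr17:71204404-71204653, held 3 matches of CCAAT and is not printed. CCAAT matched 50.0% of these windows, against 33.8% of all 32851 windows, and GGGCGG matched 50.0%, against 32.7%. CACGTG matched 6.25%, the printed Lpin2 window alone, against 6.02% of all windows. The sterol regulatory element core (TCACNCCAC) and the palindromic glucocorticoid response element matched 0 of the 16, against 1.05% and 0.387% of all windows.

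All values below are log2 expression values, and differences are log2 differences. Array medians lay between 2.42 and 2.59. The hepatocyte list was high throughout, with a summed log2 level of 15.53 to 15.91 over its 7 measured genes. The main component of the deviations from group means carried 27.4% of the variance of 5818 probe sets with a mean of at least 6. The 12 arrays with the lowest scores on it were taken as the arrays apart, and each group held 1 of them. Some other arrays lay about as far out at the opposite end. In AIN-76A with 100 ppb in water, array B had 22.78, against -26.12 for D, the array apart. After saline, array C had 15.76, against -14.16 for F, the array apart. Between these 12 arrays and the rest of their groups Srebf1 differed most, higher in the array apart in 11 of 12 groups, by 0.59 on average (SD 0.55 over groups). Adiponectin (Adipoq), a marker of fat cells, was at 7.24 in 1 array, replicate D of AIN-76A with 10 ppb in food, and at 1.94 to 2.14 in the other 4 of that group. Lep was at 1.79 to 2.70 in all arrays. The adipocyte list was otherwise carried by Car3, which ran from 6.53 to 12.97 over all arrays, with a mean of 11.9. In bulk liver, fewer cells of a type and less RNA per cell cannot be told apart.

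The diets were compared first, with the question of how the chow and the purified diet set lipogenic expression. Averaged over the 4 exposure levels, 6 members fell with LRD-5001, 1 rose and 3 did not pass the test (limma, Benjamini-Hochberg adjusted p under 0.05 over 45037 probe sets). Of all probe sets, 1.59% fell and 2.67% rose. Acly, Acaca, Acacb, Fasn and Me1 fell by more than 1 log2 unit, and Lpin1 fell by 0.86. The median difference of the 10 members was -0.957, against -0.00644 over all genes.

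Fasn had a lowest value of 7.75, a median of 8.47 and a highest of 9.27 in LRD-5001 livers, against 7.56, 10.2 and 11.65 in AIN-76A livers. The 20 chow arrays lay in the lower part of the range, and the 19 purified-diet arrays overlapped them at the bottom. Fasn was 2.89-fold lower with LRD-5001 (difference -1.53, SE 0.20, limma adjusted p 1.64e-06). Me1, the NADPH supplier, ran from 7.08 through 8.35 to 9.16 in LRD-5001 livers, against 7.84, 10.03 and 11.16 in AIN-76A livers. Its difference was -1.56 (SE 0.20, limma adjusted p 8.16e-07), 2.95-fold.

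Both acetyl-CoA carboxylases fell. Acaca, the cytosolic form, had 5.12, 5.78 and 6.35 as its lowest, median and highest value in LRD-5001 livers, against 5.11, 7.37 and 8.67 in AIN-76A livers. The difference was -1.43 (SE 0.17, limma adjusted p 2.17e-07), 2.70-fold. Acacb, the form at the outer mitochondrial membrane, whose malonyl-CoA restrains fatty acid import, had 5.06, 5.66 and 6.55 in LRD-5001 livers, against 4.95, 7.51 and 8.61 in AIN-76A livers. Its difference was -1.55 (SE 0.18, limma adjusted p 1.29e-07), 2.94-fold. In each of these genes, the lowest AIN-76A value was an array with 100 ppb arsenite in water.

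Of the enzymes that supply acetyl-CoA, Acly fell and Acss2 did not pass. Acly had 8.20, 8.89 and 9.49 in LRD-5001 livers, against 7.50, 10.47 and 11.30 in AIN-76A livers (difference -1.05, SE 0.18, limma adjusted p 0.000135). Its 2 other probe sets with a mean above 4 gave -0.91 and -1.17. Acss2 had a difference of -0.21 (95% interval -0.57 to 0.14, limma adjusted p 0.659). This average joined opposite signs, from -1.14 at 10 ppb in water to 1.34 at 100 ppb in water. Srebf1, the regulator, had a difference of 0.20 (95% interval -0.23 to 0.63, limma adjusted p 0.76). It is measured by 1 probe set, and the activity of its protein was not measured. Gpam differed by -0.36 (95% interval -0.64 to -0.08, limma adjusted p 0.172).

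The lipins went opposite ways. Lpin1 had 6.03, 6.75 and 7.81 as its lowest, median and highest value in LRD-5001 livers, against 5.82, 7.87 and 8.78 in AIN-76A livers. It fell, with a difference of -0.86 (SE 0.21, limma adjusted p 0.01). Lpin2 had 7.36, 7.88 and 8.32 in LRD-5001 livers, against 6.44, 7.50 and 7.95 in AIN-76A livers, and rose by 0.46 (SE 0.10, limma adjusted p 0.00361). The second probe set of Lpin1 gave -1.08, and Lpin2's 2 others with a mean above 4 gave 0.86 and 0.52.

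**Figure D1:**
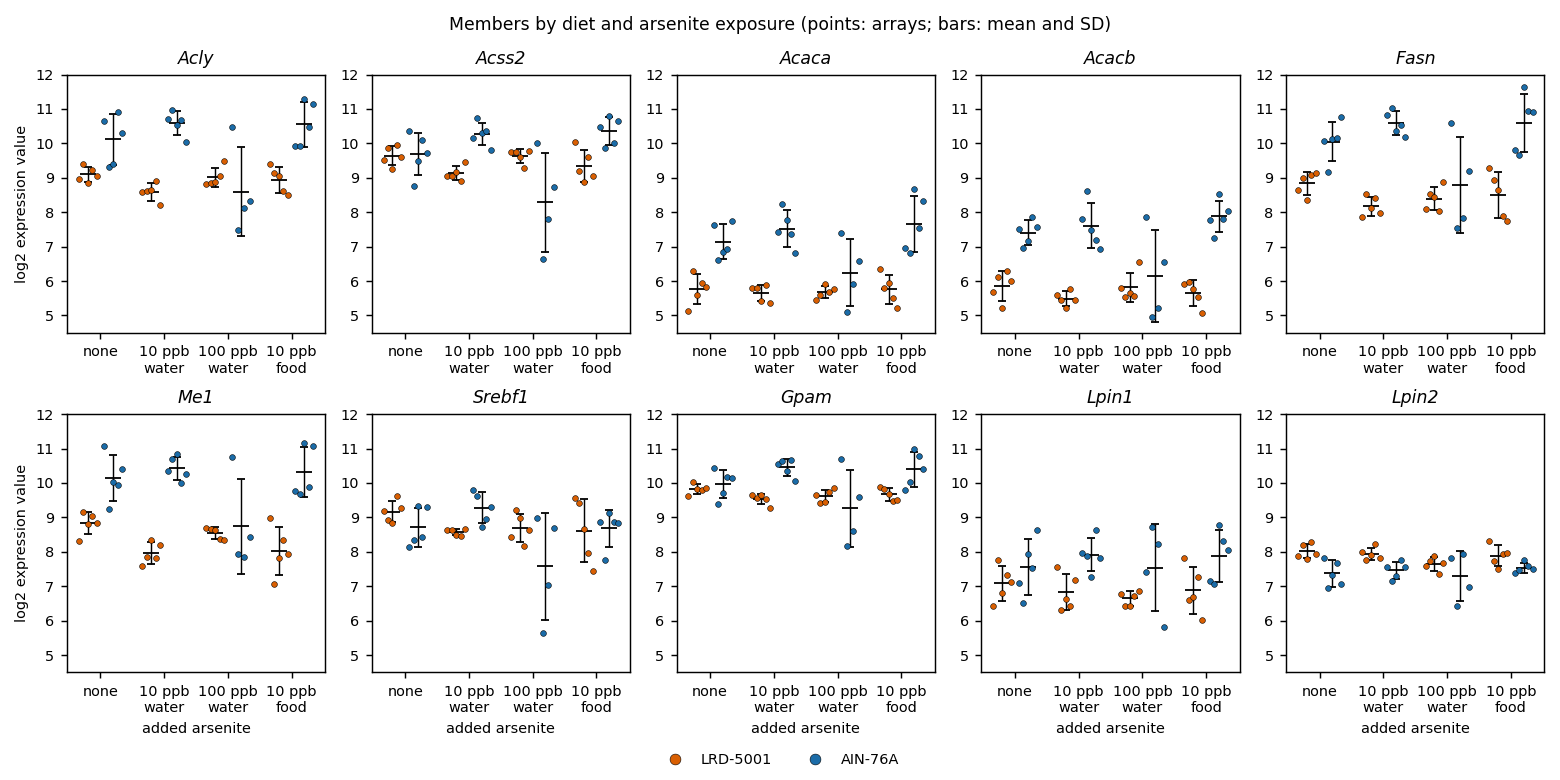
Log2 expression value (vertical axis) of each member by added arsenite (horizontal axis), with LRD-5001 arrays left of AIN-76A arrays. Points are arrays and bars the mean and SD, with n = 5 except n = 4 for AIN-76A with 100 ppb in water, whose arrays are the most widely spread in most panels.

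The diets were then compared at each exposure level. Without arsenite, Acaca (-1.39, SE 0.33, limma adjusted p 0.0363) and Acacb (-1.55, SE 0.35, limma adjusted p 0.023) fell, 2 of 10 members against 0.169% of probe sets lower. With 1 array left out at a time, Acaca passed in 3 of 10 fits and Acacb in 6 of 10. Fasn and Me1 also did not overlap between these groups, so 4 members did not overlap, against 0.746% of probe sets lower. Fasn had 8.63, 8.99, 8.37, 9.08 and 9.13 in LRD-5001 controls, against 10.08, 9.16, 10.14, 10.14 and 10.76 in AIN-76A controls. The closest arrays of the 2 diets were 9.13 and 9.16, and the test did not pass (-1.21, SE 0.40, limma adjusted p 0.247).

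At 10 ppb in water, Acly, Acaca, Acacb, Fasn and Me1 fell, 5 of 10 against 0.171% of probe sets lower. Fasn had 7.86, 8.52, 8.11, 8.40 and 7.97 in LRD-5001 livers, against 10.83, 11.04, 10.35, 10.54 and 10.20 in AIN-76A livers. All 5 chow arrays were below all 5 purified-diet arrays, and Fasn was 5.35-fold lower (-2.42, SE 0.40, limma adjusted p 0.000694). Me1 was 5.53-fold lower (-2.47, SE 0.39, limma adjusted p 0.000385). Acss2, Srebf1 and Gpam also did not overlap, which made 8 members, against 0.87% of probe sets lower, although these 3 did not pass the test. In a fit of these groups alone, Acss2 (-1.14, limma adjusted p 0.00912) and Gpam (-0.92, limma adjusted p 0.00991) did pass.

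At 10 ppb in food, the same 5 enzymes fell, against 0.169% of probe sets lower, and the same 5 did not overlap, against 0.728%. Acacb had 5.91, 5.97, 5.78, 5.54 and 5.06 in LRD-5001 livers, against 7.78, 7.26, 8.52, 7.79 and 8.04 in AIN-76A livers (-2.22, SE 0.35, limma adjusted p 0.000503). Without the purified-diet array with high Adipoq, 4 of the 5 passed, and Acly had -1.42 with a limma adjusted p of 0.129. Acly also missed the threshold with all 59 arrays in 1 fit, with the replicate block, without the arrays apart and without any of 4 other single arrays (limma adjusted p from 0.053 to 0.178). With only the 2 groups in the fit, 2 members passed, and Acly (0.0513), Acaca (0.0579) and Fasn (0.0752) had limma adjusted p values above the threshold.

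At 100 ppb in water, 0 members fell and Acss2 rose, against 1.43% of probe sets higher. Acss2 had 9.74, 9.74, 9.61, 9.29 and 9.78 in LRD-5001 livers, against 10.02, 6.63, 7.80 and 8.73 in AIN-76A livers. The chow arrays were close together and lay inside the wide range of the 4 others. The difference was 1.34 (SE 0.37, limma adjusted p 0.0454), and it passed in 2 of the 9 fits that left out 1 array. Without array B of AIN-76A it was 0.78 (limma adjusted p 0.306).

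**Figure D2:**
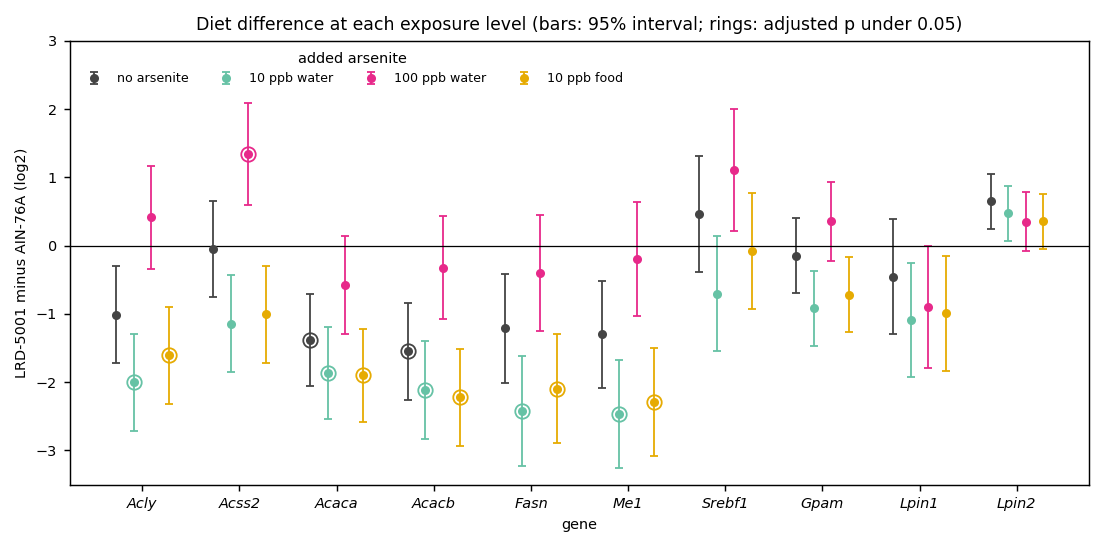
LRD-5001 minus AIN-76A difference (log2, vertical axis) of each member at 4 levels of added arsenite, with 95% intervals. Rings mark an adjusted p under 0.05: Acaca and Acacb at 3 levels, Acly, Fasn and Me1 at both 10 ppb levels, and Acss2 above 0 at 100 ppb in water.

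The test of whether the diet difference itself depended on exposure called 0 members at each level. The interaction called 0% of probe sets at 10 ppb in water, at 100 ppb in water and at 10 ppb in food (limma). At an unadjusted p under 0.05 it held 3 members at 10 ppb in water, 3 at 100 ppb in water and 0 at 10 ppb in food, against 4.14%, 6.12% and 2.5% of probe sets. At 100 ppb in water the interaction of Acly was 1.42 (SE 0.51, limma adjusted p 0.713). Without array A of AIN-76A with 100 ppb, 2 members passed there, Acly at 2.05 (limma adjusted p 0.0267) and Acss2 at 1.96 (limma adjusted p 0.0423). Without array B, C or D of that group, 0 members passed.

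Arsenite was next compared with no arsenite within each diet. On AIN-76A, 100 ppb in water gave the lowest mean of every member among the 4 groups without injection, but its arrays spread widely. The differences from controls were negative for all 10 members with the values as deposited, from -1.51 (Acly) to -0.01 (Lpin1), and 0 passed, against 0.00888% of probe sets. The sign for Lpin1 turned under 5 other ways of processing, the largest giving 0.31, and the signs of Lpin1 and Lpin2 also turned when some single arrays were left out. At an unadjusted p under 0.05 there were 8 members, against 8.87% of probe sets.

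Acly had 10.47, 7.50, 8.12 and 8.31 in arrays A to D of 100 ppb, against 10.65, 9.31, 9.39, 10.92 and 10.29 in controls. Array A lay within the control range and the other 3 below it (-1.51, SE 0.37, limma adjusted p 0.119). Fasn had 10.59, 7.56, 7.83 and 9.19 in arrays A to D, against 10.08, 9.16, 10.14, 10.14 and 10.76 in controls. Arrays B and C were low and D was close to the lowest control (-1.26, SE 0.42, limma adjusted p 0.292). Srebf1 had 8.99, 5.64, 7.03 and 8.68 in arrays A to D, against 8.15, 8.33, 9.33, 8.44 and 9.29 in controls, so that A and D lay within the control range. Without array A, 6 members passed, and Acly had -2.14 with a limma adjusted p of 0.000164. Without array B, C or D of 100 ppb, 0 members passed, and without B Acly had -1.15 (limma adjusted p 0.358). Without array C of the controls, 1 member passed.

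The levels of several marker lists differed among these arrays. The neutrophil list's summed log2 level over 9 measured genes was 7.11, 12.62, 12.54 and 10.27 in arrays A to D of 100 ppb, against a range of 5.88 to 11.74 in controls. Most of the sum was Lcn2, which hepatocytes also make in the acute phase, with 6.51, 12.50, 12.42 and 10.03. S100a8, another gene of the neutrophil list, had 2.15, 7.42, 7.67 and 6.35. Car3, which carries the adipocyte list and which hepatocytes also express, had 12.48, 7.08, 6.53 and 11.88 in arrays A to D, against 10.97 to 12.68 in controls. Adipoq was near its low level in all 4, at 1.90 to 2.19, against 1.82 to 2.51 in controls. Arrays B and C were also the lowest for the pancreas list (8.27, 7.03, 7.32 and 8.16 in A to D, against 7.65 to 8.87 in controls) and the red cell list (8.73, 7.70, 6.96 and 8.59, against 7.75 to 8.36). Each of these lists was carried by a single gene, Cela1 (mean 8.01 over all arrays) and Alas2 (mean 8.04). The other genes of both lists had means of 3.31 or below, so these sums are not a measure of pancreas or red cell content. The Kupffer cell list was at 10.91 to 11.33 in the 4 arrays, against 11 to 11.93 in controls. The part of these cells or of an acute-phase state in the members' values was not tested.

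**Figure D3:**
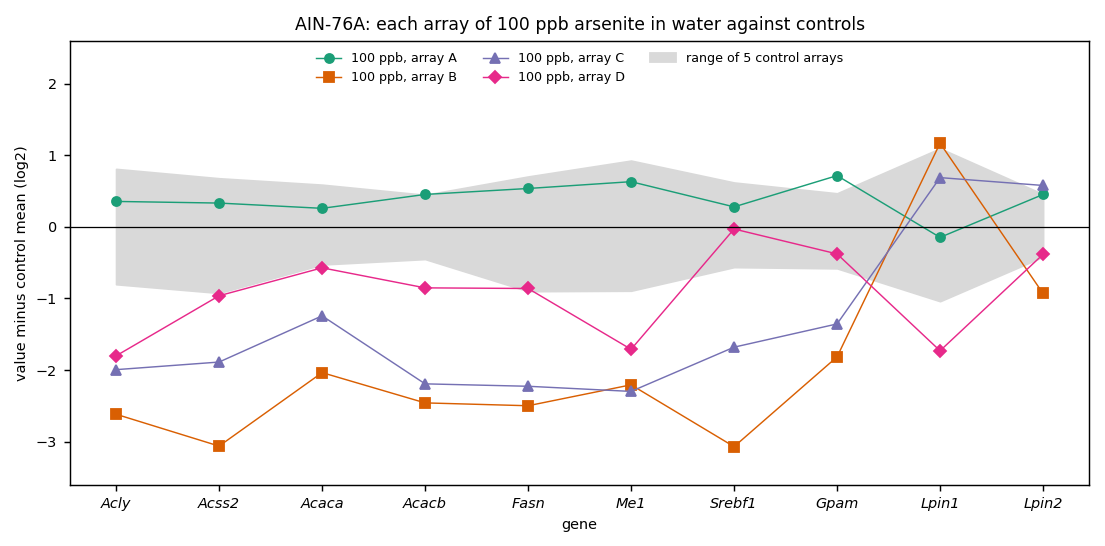
Value minus the mean of 5 AIN-76A controls (log2, vertical axis) for each member in the 4 AIN-76A arrays with 100 ppb arsenite in water, with the range of the controls in grey. Arrays B and C lie below the grey band for the 8 members from Acly to Gpam, array A lies in or just above it, and the lipins show another order of arrays.

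Set against 10 ppb in water on AIN-76A, 5 members fell with 100 ppb: Acly (-1.99, SE 0.37, limma adjusted p 0.0081), Acss2 (-1.98, SE 0.37, limma adjusted p 0.00772), Fasn (-1.80, SE 0.42, limma adjusted p 0.0321), Me1 (-1.69, SE 0.41, limma adjusted p 0.0409) and Gpam (-1.19, SE 0.29, limma adjusted p 0.0374). Of all probe sets, 0.411% fell. The second probe sets of Me1 (-1.59, limma adjusted p 0.11) and Gpam (-1.13, limma adjusted p 0.24) did not pass. The other probe sets of Acly and Acss2 with a mean above 4 did. The 10 ppb arrays had 10.72, 10.97, 10.55, 10.68 and 10.05 for Acly, and 3 of the 4 arrays of 100 ppb were below all of them. The count was 8 without array A of 100 ppb, 0 without array B, 2 without array C and 6 without array D. Of the 9 measured genes of the neutrophil list, 3 rose in the same comparison, against 136 of all 45037 probe sets. Among these genes were S100a9, by 2.75 (limma adjusted p 0.0279), and Ngp, by 1.03 (limma adjusted p 0.0157). Ngp was dim, with a mean of 2.49 over all arrays, within the range of the array medians (2.42 to 2.59).

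At 10 ppb, 0 members passed against controls on AIN-76A, with 0% of probe sets called in water and 0% in food (limma), and 0 members had an unadjusted p under 0.05 in either, against 4.84% and 3.63% of probe sets. All 10 differences were positive in water, from 0.10 (Lpin2) to 0.58 (Acss2), with a median of 0.426, with the values as deposited. The signs of Acacb, Me1 and Lpin2 turned under other ways of processing, the largest giving -0.168 for Acacb without the arrays apart. On LRD-5001, 10 ppb in water, 100 ppb in water and 10 ppb in food each had 0 members called and 0% of probe sets called (limma). At an unadjusted p under 0.05 there were 2.34%, 2.34% and 2.29% of probe sets, and of the members Me1 alone, at 10 ppb in water (-0.88, 95% interval -1.66 to -0.09) and in food (-0.81, 95% interval -1.60 to -0.02). The 100 ppb group on LRD-5001 was compact: Fasn had 8.10, 8.53, 8.43, 8.04 and 8.87, against 8.63, 8.99, 8.37, 9.08 and 9.13 in its controls (-0.45, 95% interval -1.25 to 0.35). Comparisons of 100 with 10 ppb in water on LRD-5001, and of food with water at 10 ppb on either diet, also called 0 members and 0% of probe sets (limma), and 0 members had an unadjusted p under 0.05, against 1.84% of probe sets for dose on LRD-5001, 5.82% for food on AIN-76A and 1.62% for food on LRD-5001. Comparisons within a diet share their control arrays.

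The injection experiment asked how a glucocorticoid, arsenite and their combination act within 8 hours. Lpin1, a known glucocorticoid-responsive gene, was the only member called. It had 11.33, 10.96, 10.69, 11.21 and 11.08 after dexamethasone, against 8.66, 10.95, 8.27, 9.13 and 9.46 after saline. The dexamethasone arrays were close together, and 1 saline array, B, reached their range. Lpin1 was 3.39-fold higher (1.76, SE 0.40, limma adjusted p 0.027), against 0.984% of probe sets higher. It passed in 3 of the 10 fits without 1 array, with adjusted p from 0.00145 to 0.0811, and gave 1.83 with a limma adjusted p of 0.0514 without the arrays apart.

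With arsenite beside dexamethasone Lpin1 stayed high. It had 11.35, 11.41, 11.22, 9.85 and 10.49 after both agents, against 7.02, 7.96, 7.17, 8.05 and 8.34 after arsenite alone. The groups did not overlap, against 1.19% of probe sets not overlapping and higher. Gpam did not overlap either, in the other direction, with 9.84 as its highest value after both agents, against 9.87 as its lowest after arsenite, as in 0.826% of probe sets lower (-0.92, SE 0.33, limma adjusted p 0.294). The Lpin1 difference was 3.15 (SE 0.40, limma adjusted p 0.000425), 8.90-fold, against 0.58% of probe sets called higher, and it passed in all 10 fits that left out 1 array. The second Lpin1 probe set gave 3.27. After both agents against saline 0 members passed, against 0.926% of probe sets (limma), and 4 had an unadjusted p under 0.05, against 9.78%. Among these, Acss2 had -1.65 (limma adjusted p 0.0706) and Lpin1 1.57 (limma adjusted p 0.0743).

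Arsenite alone called 0 members and 0% of probe sets against saline (limma). The lipins were the 2 members with an unadjusted p under 0.05, against 3.14% of probe sets. Lpin2 had 6.98, 7.22, 7.22, 7.24 and 6.70 after arsenite, against 8.00, 8.78, 8.08, 7.68 and 8.27 after saline, so that the groups did not overlap, as in 0.218% of probe sets lower. Its difference was -1.09 (95% interval -1.56 to -0.62, limma adjusted p 1), and that of Lpin1 was -1.58 (95% interval -2.43 to -0.74, limma adjusted p 1). Both agents against dexamethasone called 0 members and 0% of probe sets (limma), although 4 members had an unadjusted p under 0.05, against 3.87% of probe sets, and all 10 differences were negative with the values as deposited. That of Lpin1 gave 0.0408 without the arrays apart, and those of Lpin1 and Srebf1 turned when some single arrays were left out. The interaction of the agents called 0 members and 0% of probe sets (limma), and 2 members had an unadjusted p under 0.05, against 3.46% of probe sets.

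The enzymes of fatty acid synthesis spread widely after saline. Fasn had 11.94, 10.91, 8.42, 9.66 and 10.79 after saline, and Me1 had 10.24, 9.96, 7.73, 7.25 and 9.76, with arrays C and E the lowest in both. After dexamethasone Me1 had 10.63, 10.56, 10.20, 10.04 and 10.93 (1.49, SE 0.53, limma adjusted p 0.227). Saline against undisturbed controls called 0 members and 0% of probe sets (limma), with 3 members at an unadjusted p under 0.05, against 4.42% of probe sets. These were Lpin1 at 1.75 (95% interval 0.90 to 2.59), Lpin2 at 0.79 (95% interval 0.36 to 1.22) and Me1 at -1.15 (95% interval -2.07 to -0.23). Injection and experiment cannot be told apart in that comparison.

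**Figure D4:**
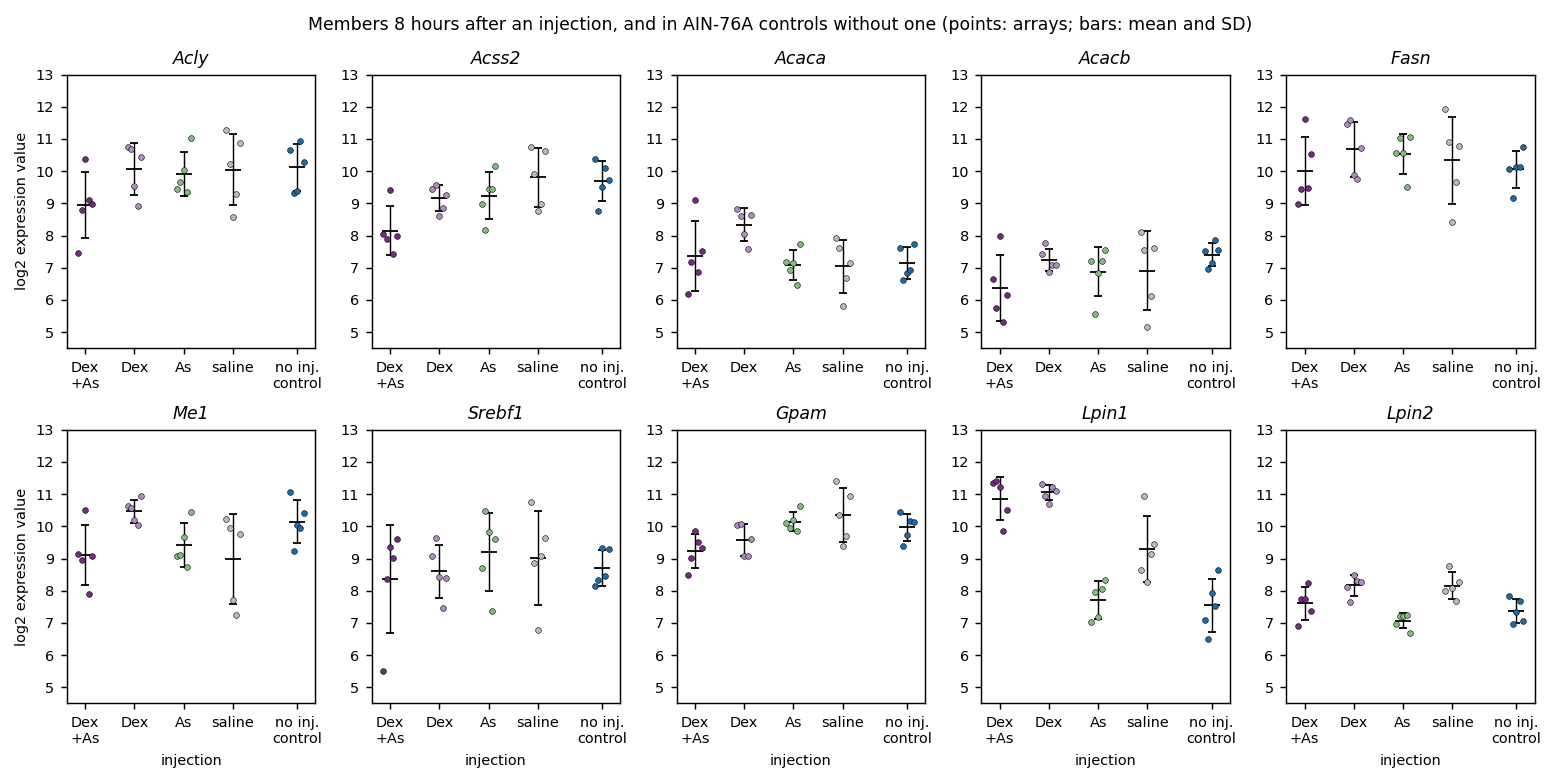
Log2 expression value (vertical axis) of each member in the injected groups and, on the right, in AIN-76A controls without injection (n = 5 each). Points are arrays and bars the mean and SD, and Lpin1 separates dexamethasone with arsenite from arsenite alone.

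Across all 12 groups each member's means spanned between 1.09 (Lpin2) and 4.41 (Lpin1). Acaca, Acacb, Acly, Fasn and Me1 had their lowest mean in LRD-5001 with 10 ppb in water. Srebf1 was lowest in AIN-76A with 100 ppb in water, and Acss2 and Gpam after both injected agents. Acaca, Fasn, Me1 and both lipins were highest after dexamethasone. Some of these leads were small: Lpin2 had a mean of 8.166, against 8.161 after saline. Fasn had 10.68, against 10.59 on AIN-76A with 10 ppb in food. When the groups were ordered by mean, all 11 pairs of neighbours overlapped in each of the 10 members.

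Many pairs of members also varied together within groups. Other gene pairs were not examined, so the count below has no share of all pairs beside it. Deviations were not scaled by group, so widely spread groups weigh more. The SD of Fasn was 1.40 in AIN-76A with 100 ppb in water and 1.35 after saline, against 0.281 in LRD-5001 with 10 ppb in water. After removal of group means, 26 of 45 pairs were correlated over 59 arrays (permutation test within groups, 100000 resamples, two-sided, Benjamini-Hochberg over 45 pairs). All 26 were among the 28 pairs without a lipin, whose Pearson's r ran from 0.398 to 0.911 and Spearman's rho from 0.315 to 0.88. Acly and Gpam had the highest r, 0.911 (rho 0.88, permutation p 1e-05, the smallest these resamples can give, adjusted 2.81e-05), and 0.89 without the 2 farthest arrays. Acaca and Fasn had 0.882 (rho 0.845, permutation p 1e-05, adjusted 2.81e-05), and 0.858 without the 2 farthest arrays. Srebf1 and Fasn had 0.799 (rho 0.76, permutation p 1e-05, adjusted 2.81e-05), and 0.759 without the 2 farthest. The 2 pairs that did not pass were Srebf1 with Acacb (0.421, rho 0.364, adjusted permutation p 0.0609) and with Me1 (0.398, rho 0.315, adjusted permutation p 0.0683). Pairs with Lpin1 had r from -0.0619 to 0.286 and pairs with Lpin2 from 0.0776 to 0.319, with 0 past the threshold. Without the 12 arrays apart, 25 pairs passed.

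**Figure D5:**
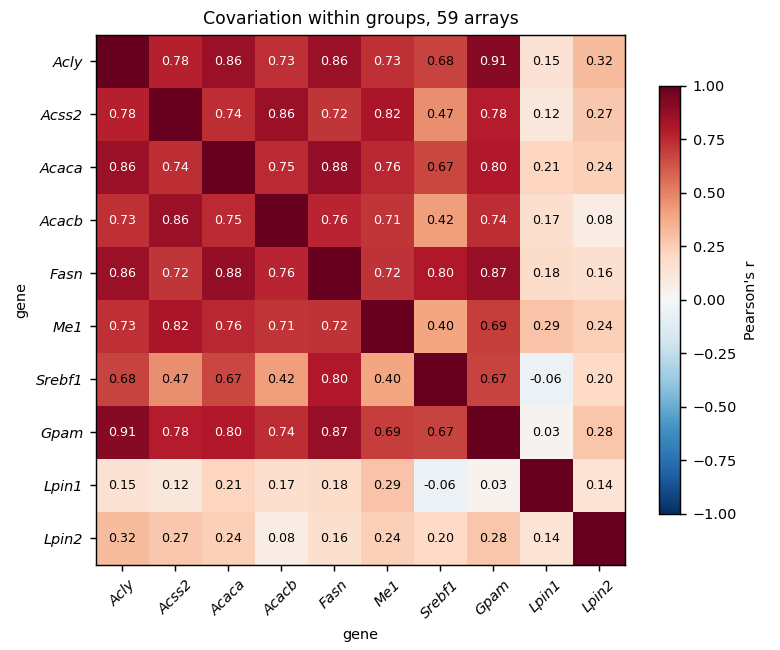
Pearson's r between members after removal of group means, over 59 arrays (both axes: genes; colour: r). The 8 genes from Acly to Gpam form a block with r of 0.398 to 0.911, and the rows of Lpin1 and Lpin2 stay at or below 0.319.

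The genes around the pathway were read from lists of related genes in the averaged diet comparison. That comparison called 1.59% of all probe sets lower and 2.67% higher. Of 12 desaturases and elongases, 6 fell with LRD-5001 and 0 rose, among them Elovl5 (-1.57, SE 0.14), Elovl6 (-1.68, SE 0.19), both fatty acid elongases, and Scd1 (-1.11, SE 0.12), the main delta-9 desaturase of liver. Of 12 measured genes of carbon and NADPH supply, 4 fell and 1 rose. Pklr, the liver pyruvate kinase, had -2.11 (SE 0.23), and Khk, which phosphorylates fructose, had -0.90 (SE 0.09). Pgd, an enzyme of the pentose phosphate pathway, had -0.72 (SE 0.10).

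Of 19 measured regulators, 2 rose and 1 fell, in the same comparison where 2.67% of all probe sets rose and 1.59% fell. Pparg rose by 0.92 (SE 0.14) at a low mean of 3.59, Ppargc1b rose by 0.71 (SE 0.18), and Insig2, which retains SREBP in the endoplasmic reticulum, had -0.67 (SE 0.12). Of 16 measured genes of triglyceride assembly, 2 rose and 2 fell: Gpat4 at 0.27 and Agpat5 at 0.31, Acsl5 at -0.44 and Agpat2 at -0.31. Of 18 measured genes of fatty acid oxidation, 7 rose and 1 fell, with Acaa1b at 1.32 (SE 0.22), Ehhadh at 0.99 (SE 0.17), both peroxisomal, and Acadm at 0.40 (SE 0.06). Of 15 measured genes of cholesterol synthesis, 8 rose and 0 fell, with Msmo1 at 1.32 (SE 0.11) and Hmgcs1 at 0.95 (SE 0.09). All of these named genes passed (limma adjusted p from 2.71e-10 to 0.0388).

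Clock genes and leukocyte markers also moved with diet. Of 17 measured clock genes, 5 rose and 3 fell, against 2.67% and 1.59% of all probe sets. Dbp had 2.85 (SE 0.36), Arntl -1.15 (SE 0.12) and Nfil3 -1.41 (SE 0.12). Of 9 neutrophil genes 3 fell, with Lcn2 at -3.34 (SE 0.74), and of 11 Kupffer cell genes 4 fell, with Clec4f at -0.40 (SE 0.09). The summed neutrophil level ran from 5.60 to 5.81 in LRD-5001 controls, against 5.88 to 11.74 in AIN-76A controls. At the other exposure levels the diets overlapped in this sum. With 10 ppb in food it ran from 5.885 to 11.3 in LRD-5001 livers, against 6.399 to 11.13 in AIN-76A livers. The time of day of sampling is not in the labels, and the part of clock phase or of these cells in the members' diet differences was not tested.

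After dexamethasone, 1 of 19 regulators rose and 1 fell, 0 of 12 desaturases and elongases rose and 1 fell, 2 of 12 genes of carbon and NADPH supply rose and 0 fell, 0 of 16 genes of triglyceride assembly and 0 of 18 of fatty acid oxidation passed, and 0 of 15 genes of cholesterol synthesis rose and 1 fell. Of all probe sets, 0.984% rose and 0.753% fell. The cholesterol list had a median difference of -1.17, against -0.0196 over all genes. After both agents against saline, 5 of its 15 genes fell, with a median of -1.57, against -0.0044 over all genes. After dexamethasone Insig2 rose by 1.40 (SE 0.22, limma adjusted p 0.00127), and Scap, the SREBP escort, fell by 0.96 (limma adjusted p 0.0195). Elovl2 fell by 1.26 (limma adjusted p 0.00301) and Sc5d, of cholesterol synthesis, by 1.47 (limma adjusted p 0.000229). Khk rose by 1.19 (limma adjusted p 0.0402).

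The genes whose 12 group means were most like the mean standardised profile of the members, among 1667 genes with a range of at least 1, were Niban2 (r 0.90), Gstp3 (0.879), Pnpla5 (0.878), Pgd (0.871) and Mlxipl (0.868). Mlxipl, whose range of 1.01 was just past that limit, encodes ChREBP, a carbohydrate-responsive transcription factor. The members themselves followed the profile unequally, with r of 0.0698 for Lpin2, 0.46 for Lpin1, 0.594 for Srebf1 and 0.632 for Acss2, up to 0.963 for Acly. These correlations are over 12 group means of shared arrays and are given as a description.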

How the data were processed

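The log2 expression values were deposited by the authors after RMA, per the submitters' processing notes (version and settings: not given in the sources used here). They cover 45101 probe sets on 59 arrays, and 64 control probe sets were left out. Array number limits the precision, and dim probe sets can have compressed differences. The labels call arrays of a group biological replicates.

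Symbols came from the platform annotation (34945 probe sets with 1 symbol, 932 with several). Differences were fitted with limma 3.58.1 (R 4.3.3), separately for 39 exposure and 20 injection arrays, except saline against undisturbed control, fitted on all 59. The p-values were adjusted over 45037 probe sets (Benjamini-Hochberg, threshold 0.05) within each of 25 comparisons. Intervals are 95%. The fit was tested on simulated data. No pair of arrays was a duplicate (closest r 0.9943).

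The members and gene lists were chosen with earlier results of these data known. Named genes are all members, the 3 genes of smallest p per list in the averaged diet, 100 ppb and dexamethasone comparisons, and the 5 most alike in profile. Further genes (S100a8, Lcn2, Ngp, S100a9, Adipoq, Lep, Car3, Agpat5, Dbp, Clec4f) were chosen after their values were seen. Alternatives were other sets of arrays, normalization, variance trend, filter, probe set choice, replicate block, arrays apart, and each array left out. Levels of different genes are not compared.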

Additional observations from a re-analysis of the deposited data

Results flagged for a closer look

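Of 120 sets of member and group, 2 held an array far from the rest by Dixon's criterion, which chance gives in about 1 in 20 sets. Acacb was at 6.55 in replicate F of LRD-5001 with 100 ppb in water, against 5.53 to 5.80 in the other 4 arrays. Srebf1 was at 7.75 in replicate C of AIN-76A with 10 ppb in food, against 8.83 to 9.12 in the other 4.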

How the results depend on the processing

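The averaged diet comparison called 7 members in every alternative tried, except that single arrays left out gave 7 to 8. Counts that moved by over 1.5 times were as follows. With all 59 arrays in 1 fit, the diet count was 0 in controls and 0 at 100 ppb in water, 100 against 10 ppb on AIN-76A gave 2, dexamethasone 2 and both agents against saline 3. With only the groups compared, the diet count was 0 at 100 ppb in water and 2 at 10 ppb in food, and 100 against 10 ppb gave 0. Quantile normalization gave 0 for diet at 100 ppb in water, and a variance trend gave 2 for both agents against saline. Probe sets with a mean of at least 4 gave 8 for 100 against 10 ppb and 2 for both agents against saline. Without the arrays apart, diet gave 1 in controls and 2 at 100 ppb in water, 100 ppb against control on AIN-76A gave 1 and dexamethasone 0.

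The replicate letters did not pair arrays: arrays of the same letter had a mean correlation of deviations of -0.0278 in the exposure experiment and 0.0234 in the injection experiment, against 0.0129 and -0.00274 for other letters. With the replicate block, diet gave 1 in controls and 0 at 100 ppb in water, and 100 against 10 ppb gave 2.

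Leaving out single arrays gave 0 to 2 for diet in controls, 5 to 5 at 10 ppb in water, 4 to 5 at 10 ppb in food, 0 to 3 at 100 ppb in water, 0 to 6 for 100 ppb against control on AIN-76A, 0 to 8 for 100 against 10 ppb on AIN-76A, 0 to 2 for the interaction at 100 ppb, 0 to 1 for dexamethasone, 0 to 1 for both agents against saline and 1 to 1 for both against arsenite.

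Differences of all members were recomputed in the comparisons that give or plot them as a whole, and elsewhere those with an unadjusted p under 0.05. Some signs turned. Lpin1 at 100 ppb against control on AIN-76A gave 0.0437 with quantile normalization, 0.0811 with the replicate block, 0.190 as the mean of its probe sets, 0.310 without the arrays apart and 0.0158 with these as a block. Lpin1 at 100 against 10 ppb gave 0.192 without the arrays apart, Srebf1 between diets at 10 ppb in food 0.0554 with the replicate block, Acly after dexamethasone -0.0687 with the replicate block, Me1 after both agents against saline -0.071 as the mean of its probe sets, and Me1 after both against arsenite 0.0743 and Lpin1 after both against dexamethasone 0.0408 without the arrays apart. On AIN-76A, 10 ppb in water against control gave Acacb -0.0028 and Lpin2 -0.0815 as the mean of probe sets, and Acacb -0.168 and Me1 -0.0005 without the arrays apart.

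With single arrays left out, 28 differences changed sign in at least 1 fit, and their ranges were as follows. After dexamethasone against saline, Acacb ran from -0.100 to 0.637, Acly from -0.352 to 0.324, Fasn from -0.146 to 0.734, Srebf1 from -0.983 to 0.0150 and Lpin2 from -0.116 to 0.160. After both agents against saline, Acaca ran from -0.102 to 0.631, Fasn from -0.809 to 0.0708, Me1 from -0.302 to 0.445 and Srebf1 from -1.22 to 0.0645. After both against arsenite, Acaca ran from -0.151 to 0.582 and Me1 from -0.642 to 0.00905. On AIN-76A, 100 ppb against control gave Lpin1 from -0.397 to 0.570 and Lpin2 from -0.288 to 0.216, and 100 against 10 ppb gave Lpin1 from -0.764 to 0.203 and Lpin2 from -0.386 to 0.117. Acss2 between diets in controls ran from -0.276 to 0.125. Between diets at 100 ppb in water, Acacb ran from -0.726 to 0.245, Fasn from -0.809 to 0.203, Me1 from -0.494 to 0.483 and Gpam from -0.0129 to 0.831, and at 10 ppb in food Srebf1 ran from -0.315 to 0.213. On AIN-76A, 10 ppb in water against control gave Acacb from -0.0552 to 0.366 and Lpin2 from -0.0058 to 0.213. On LRD-5001, 100 ppb against control gave Acaca from -0.241 to 0.0529, Acacb from -0.221 to 0.0664 and Acss2 from -0.108 to 0.0755. After both agents against dexamethasone, Lpin1 ran from -0.327 to 0.0653 and Srebf1 from -0.542 to 0.483. The cause of these changes was not tested.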
